A study of Gallus gallus with 6 samples.

Results

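Integrins are the main receptors by which cells hold on to the surrounding matrix, and 10 subunits that bind laminin, collagen or fibronectin-type ligands were followed here by name in RNA sequencing of chicken lens tissue. Rows for 9 of the 10 were read from the deposited tables of 24356 genes (ITGA1, ITGA2, ITGA3, ITGA6, ITGA8, ITGA11, ITGAV, ITGB1 and ITGB5), and ITGA5 was not analysed here. The GSK-J4 group held 3 libraries from lens explants that were kept in culture after an operation modelled on cataract surgery and given GSK-J4 daily from day 1 to day 3 after injury. GSK-J4 enters cells and blocks KDM6A and KDM6B, enzymes that take methyl groups off histone H3. The DMSO group held 3 libraries from explants operated on and cultured in the same way, which received the vehicle on the same days. All cultures were kept in medium with 10% fetal bovine serum. Every library therefore came from injured, serum-exposed tissue. The sources used here do not state the dose of GSK-J4, the strain, age and sex of the birds, or how many lenses went into a library.

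An integrin is a pair of 1 alpha and 1 beta chain, both of which cross the cell membrane. The alpha chain largely sets which ligand is bound, and the short tail of the beta chain recruits talin, kindlin and the other proteins that tie the receptor to actin. ITGB1 is the common partner of most alpha chains, while ITGAV can also pair with ITGB3, ITGB5, ITGB6 or ITGB8. In the lens, laminin-binding integrins attach epithelial and fibre cells to the capsule, and ITGAV-containing receptors can free active TGF-beta from its latent complex.

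Library depth ranged from 14862268 to 22541756 counts assigned to genes. The tissue label was checked against lens fibre markers, of which 17 of the 18 listed names were measured. In CPM, counts scaled to library size, their summed level was 229168 to 279543 CPM with GSK-J4 and 199771 to 240902 CPM with DMSO. Of the lens epithelium markers, PAX6 was at 433 ± 26.6 CPM with GSK-J4 and 475 ± 61.7 CPM with DMSO (SD, n = 3 each), while OTX2 had no count in any library. Libraries also differed in female-specific chromosome W transcripts. The summed CPM of 66 W genes was 349.5, 763 and 15.6 in GSK-J4 replicates 1, 2 and 3, against 390.4, 938 and 909.8 in DMSO replicates 1, 2 and 3.

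With GSK-J4, 2 of the 9 integrin subunits fell and the other 7 did not pass the test. The 2 were ITGA8, an RGD-type receptor chain known in mammals from smooth muscle and other contractile cells, and ITGA11, a fibrillar collagen receptor chain known in mammals from fibroblasts. Both were the least abundant of the 9. Together they made up 0.455% ± 0.158 of the summed FPKM of the 7 alpha members with GSK-J4 and 3.02% ± 0.300 with DMSO (SD, n = 3 each). FPKM is the authors' unit, corrected for gene length and 1 factor per library, and levels of different genes are compared in it throughout. Calls rest on edgeR's quasi-likelihood test of the counts over 12583 genes at a Benjamini-Hochberg adjusted p below 0.05. By that rule 5.04% of all tested genes were called, 3.99% as lower and 1.05% as higher. No member was called higher by edgeR with treatment as the sole term, by DESeq2 or by limma on FPKM. Of the members, 1, ITGAV, was higher at an unadjusted p below 0.05 in each of these. Of the 9 members, 3 had an unadjusted p below 0.05 in edgeR, beside 19.1% of all tested genes, and for 3 the CPM of the groups were fully apart, beside 24.3%. The 2 that were called were at least 2-fold lower, as were 2.86% of all tested genes. The median log2 fold change of the 9 members was -0.10 (0.05 without DMSO replicate 1), beside 0.01 over all tested genes.

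**Figure D1:**
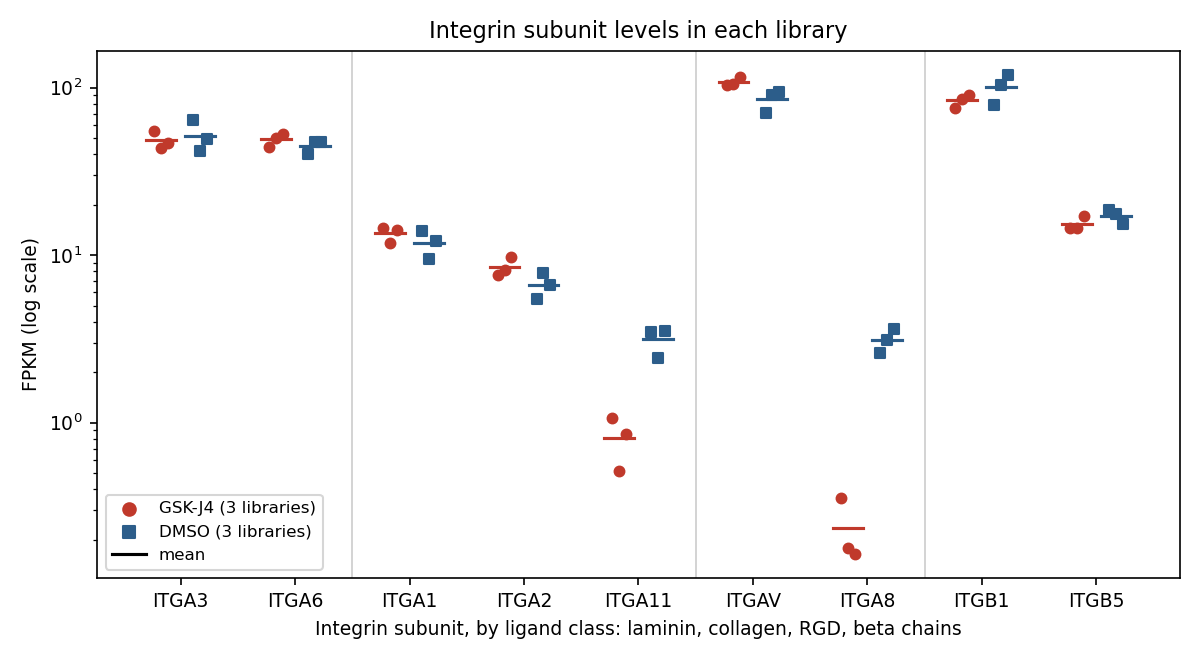
FPKM on a log axis for each of the 9 integrin subunits in the 3 GSK-J4 libraries (circles) and the 3 DMSO libraries (squares), with a line at each mean. ITGA8 and ITGA11 are the subunits whose GSK-J4 points all lie below their DMSO points, and ITGAV is the one whose GSK-J4 points all lie above.

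ITGA8 pairs with ITGB1 and binds nephronectin, fibronectin and other ligands with an RGD sequence. It had 22, 15 and 9 counts in GSK-J4 replicates 1, 2 and 3, against 181, 210.0 and 232 counts in DMSO replicates 1, 2 and 3. Its level was 0.357, 0.179 and 0.165 FPKM in the GSK-J4 libraries and 2.60, 3.10 and 3.65 FPKM in the DMSO libraries. All 3 GSK-J4 libraries were thus far below all 3 DMSO libraries. The gene fell 13.4-fold, a log2 fold change of -3.74 (95% interval -4.42 to -3.06, adjusted p = 0.000105 in edgeR). With 1 library left out at a time the log2 fold change stayed between -4.15 and -3.55. In the GSK-J4 group, 2 of 3 libraries lay above the minimum of the low-count filter, so the gene passed that filter through the DMSO group. In bulk tissue, fewer cells of a type and less RNA per cell cannot be told apart. The tables place ITGA8 (ENSGALG00000008747) on the plus strand of chromosome 2 at 20336331 to 20435530 (the labels do not name the genome build).

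The second subunit that fell, ITGA11, pairs with ITGB1 as a receptor for fibrillar collagens. Its counts were 77, 51 and 55 in GSK-J4 replicates 1, 2 and 3, against 285, 193 and 265 in DMSO replicates 1, 2 and 3. This corresponds to 1.06, 0.517 and 0.854 FPKM with GSK-J4 and to 3.47, 2.42 and 3.54 FPKM with DMSO. Again the groups did not overlap, and the highest GSK-J4 library was below the lowest DMSO library. ITGA11 fell 3.94-fold, a log2 fold change of -1.98 (SE 0.27, 95% interval -2.58 to -1.38, adjusted p = 0.00175 in edgeR). Leaving out each library in turn gave -2.22 to -1.71. ITGA11 (ENSGALG00000008007) lies on the minus strand of chromosome 10 at 19594940 to 19629103. CPM ranges of the groups were apart, GSK-J4 below DMSO, for 13.5% of all tested genes.

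The other collagen receptor chains, ITGA1 and ITGA2, did not pass the test. ITGA1, which binds collagen IV and fibrillar collagens, had 14.5, 11.9 and 14.1 FPKM with GSK-J4 and 13.9, 9.44 and 12.2 FPKM with DMSO. ITGA2, a receptor chain for collagen I, had 7.64, 8.18 and 9.77 FPKM with GSK-J4 and 5.45, 7.81 and 6.64 FPKM with DMSO. The groups overlapped for both genes. Their log2 fold changes were 0.18 for ITGA1 (95% interval -0.15 to 0.51, adjusted p = 0.572 in edgeR) and 0.35 for ITGA2 (95% interval -0.01 to 0.72, adjusted p = 0.282). Neither interval reaches that of ITGA11. Within a library, the ratio of ITGA11 to ITGA1 FPKM was 0.0732, 0.0435 and 0.0606 in GSK-J4 replicates 1, 2 and 3, against 0.251, 0.256 and 0.289 in the DMSO libraries. The 3 collagen receptor chains together were at 22.8 ± 2.08 FPKM with GSK-J4 and 21.6 ± 1.70 FPKM with DMSO (SD, n = 3 each), and ITGA1 and ITGA2 supplied most of that.

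ITGA1 (ENSGALG00000014891, at 15771673 to 15844372) and ITGA2 (ENSGALG00000014903, at 15862431 to 15924311) are neighbours on the sex chromosome Z, both on the plus strand and 18058 bases apart. A male bird carries 2 copies of Z and a female 1, so their level can move with the sex mix of a library. The library with the least W signal, GSK-J4 replicate 3, had the highest ITGA2 of the 6, at 32.2 CPM. ITGA2 was lowest in DMSO replicate 1, at 18.2 CPM, so it did not follow the W signal throughout. The libraries with the least W signal had the highest ITGA1. These were GSK-J4 replicate 1 (76.1 CPM), GSK-J4 replicate 3 (75.2 CPM) and DMSO replicate 1 (74.8 CPM). With more W signal, ITGA1 was at 63.3 CPM in GSK-J4 replicate 2 and at 50.9 and 63.8 CPM in DMSO replicates 2 and 3. Whether the sex mix set these levels was not tested. The median log2 fold change of the 560 tested Z genes was 0.16, and it was 0.08 without GSK-J4 replicate 3 and 0.07 with the W signal as a covariate. Without GSK-J4 replicate 3 the log2 fold change was 0.14 for ITGA1 and 0.25 for ITGA2, and with the W covariate it was 0.08 and 0.27, in each case not called. The deposited tables annotate ITGA1, ITGA2 and ITGA11 with the same domain family, the von Willebrand factor A domain that forms the collagen-binding site of these chains, so the subunit that fell and those that were not called share it.

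Laminin receptor chains were abundant and did not differ beyond the spread of the libraries. ITGA6, the laminin receptor chain that pairs with ITGB1 or ITGB4, had 44.1, 50.4 and 52.9 FPKM with GSK-J4 and 40.0, 47.2 and 47.6 FPKM with DMSO. ITGA3, also a laminin receptor chain, had 55.5, 43.7 and 46.9 FPKM with GSK-J4 and 64.0, 42.1 and 49.2 FPKM with DMSO. The ranges overlapped for both. The log2 fold change was 0.12 for ITGA6 (95% interval -0.13 to 0.38, adjusted p = 0.629 in edgeR) and -0.10 for ITGA3 (95% interval -0.44 to 0.25, adjusted p = 0.791), and that of ITGA3 was 0.10 without DMSO replicate 1. Their summed level was 97.9 ± 3.23 FPKM with GSK-J4 and 96.7 ± 7.36 FPKM with DMSO (SD, n = 3 each).

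ITGAV was the most abundant of the 7 alpha chains followed here in all 6 libraries. ITGA5 is not among these. Its level was 103, 106 and 116 FPKM in GSK-J4 replicates 1, 2 and 3, against 71.1, 90.9 and 93.7 FPKM in DMSO replicates 1, 2 and 3. Every GSK-J4 library was above every DMSO library, as was so for 10.8% of all tested genes. The difference was 1.27-fold, a log2 fold change of 0.34 (95% interval 0.07 to 0.61). With treatment as the sole term, it did not pass the test over all genes (adjusted p = 0.148 in edgeR). Its call with the replicate number as a block is given with the other alternatives. ITGAV and ITGA8 bind overlapping RGD-type ligands. The ratio of ITGA8 to ITGAV FPKM was 0.00346, 0.00169 and 0.00142 in the GSK-J4 libraries, against 0.0365, 0.0341 and 0.0389 in the DMSO libraries. That these ratios do not overlap follows from the levels of the 2 genes and is not a separate observation.

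**Figure D2:**
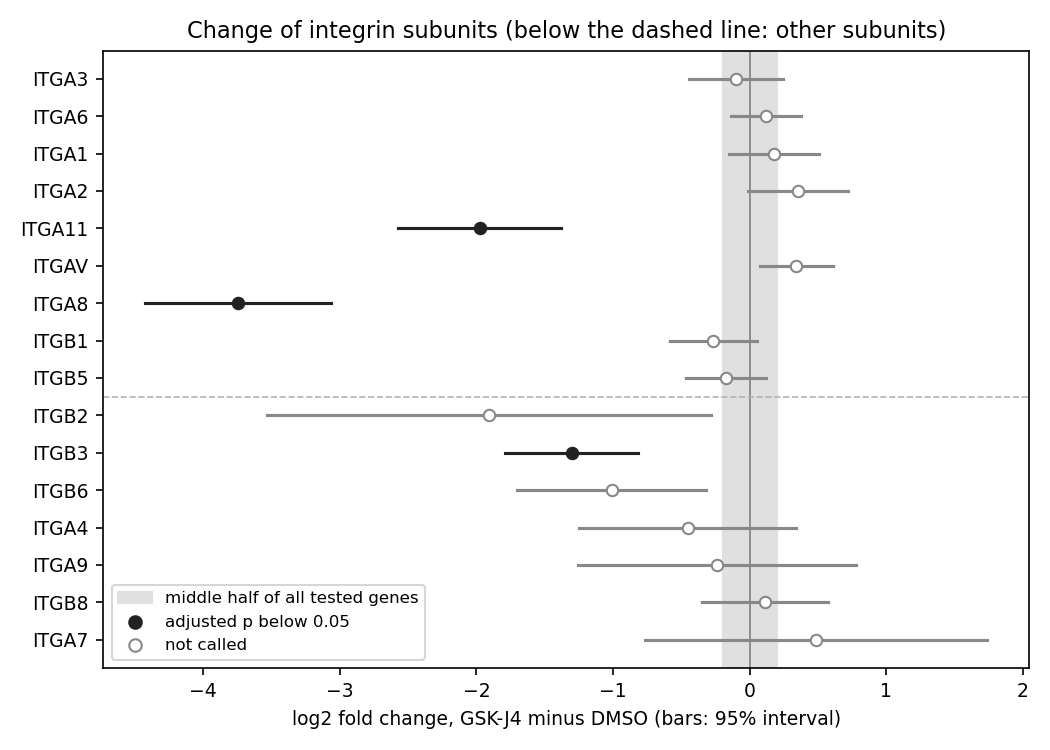
Log2 fold change of GSK-J4 against DMSO with its 95% interval for the 9 subunits and, below the dashed line, for 7 other tested integrin subunits; filled points passed the test and the grey band is the interquartile range of all tested genes. ITGA8 and ITGA11 lie far left of the band, and ITGB3 is the only filled point among the other subunits.

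Of the beta chains, ITGB1 had 75.3, 85.9 and 90.9 FPKM with GSK-J4 and 78.7, 104 and 119.6 FPKM with DMSO. ITGB5, which pairs with ITGAV, had 14.5, 14.5 and 17.1 FPKM with GSK-J4 and 18.6, 17.5 and 15.3 FPKM with DMSO. The groups overlapped for both chains. Their log2 fold changes were -0.27 for ITGB1 (95% interval -0.59 to 0.06, adjusted p = 0.365 in edgeR) and -0.17 for ITGB5 (95% interval -0.46 to 0.12, adjusted p = 0.541). The lower bound for ITGB1 lies above the upper bounds of ITGA8 and ITGA11. With DMSO, ITGA8 and ITGA11 together were at 6.25 ± 0.849 FPKM, beside 101 ± 20.6 FPKM for ITGB1 (SD, n = 3 each). ITGB1 also pairs with more abundant alpha chains, so its level cannot tell how these 2 pairs changed.

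The ratio of ITGAV to ITGB1 did not overlap between the groups, although neither gene was called on its own. ITGAV FPKM was 1.37, 1.23 and 1.28 times that of ITGB1 in GSK-J4 replicates 1, 2 and 3, against 0.903, 0.878 and 0.783 times in DMSO replicates 1, 2 and 3. In FPKM, ITGAV therefore exceeded ITGB1 in each GSK-J4 library and was below it in each DMSO library. This order rests on the gene lengths used, 5741 bases for ITGAV and 3803 for ITGB1. In CPM, ITGAV was above ITGB1 in every library. In DMSO replicates 1, 2 and 3 it was at 384.6, 491.3 and 490.0 CPM, against 282.0, 370.9 and 414.4 CPM for ITGB1. How often ratios of 2 genes are apart between the groups was not tested. A ratio within a library does not depend on how libraries are scaled. These ratios are given as a description, with no test. Over ITGB1, the other abundant alpha chains varied. All these ratios share ITGB1 as the divisor, so they are not separate observations. ITGA6 was 0.586, 0.586 and 0.582 times ITGB1 with GSK-J4, against 0.509, 0.456 and 0.398 times with DMSO, with no overlap. ITGA3 was 0.738, 0.509 and 0.515 times ITGB1 with GSK-J4 and 0.813, 0.406 and 0.411 times with DMSO, and the groups overlapped. They also overlapped for ITGA1, at 0.192, 0.139 and 0.155 times ITGB1 with GSK-J4 and 0.176, 0.0911 and 0.102 times with DMSO, but not for ITGA2, at 0.102, 0.0952 and 0.107 times with GSK-J4 and 0.0692, 0.0754 and 0.0555 times with DMSO. The 7 alpha chains summed to 229 ± 10.3 FPKM with GSK-J4 and 207 ± 8.63 FPKM with DMSO (SD, n = 3 each), a difference of 0.15 on the log2 scale. The combined level of ITGA8 and ITGA11 differed by -5.21 FPKM (GSK-J4 minus DMSO), and that of ITGAV by 23.2 FPKM. As a share of the sum of these 7 alpha chains, ITGAV took 47.3% ± 1.45 with GSK-J4 and 41.2% ± 5.01 with DMSO. ITGA6 took 21.4% ± 1.74 with GSK-J4 and 21.7% ± 1.66 with DMSO (SD, n = 3 each).

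**Figure D3:**
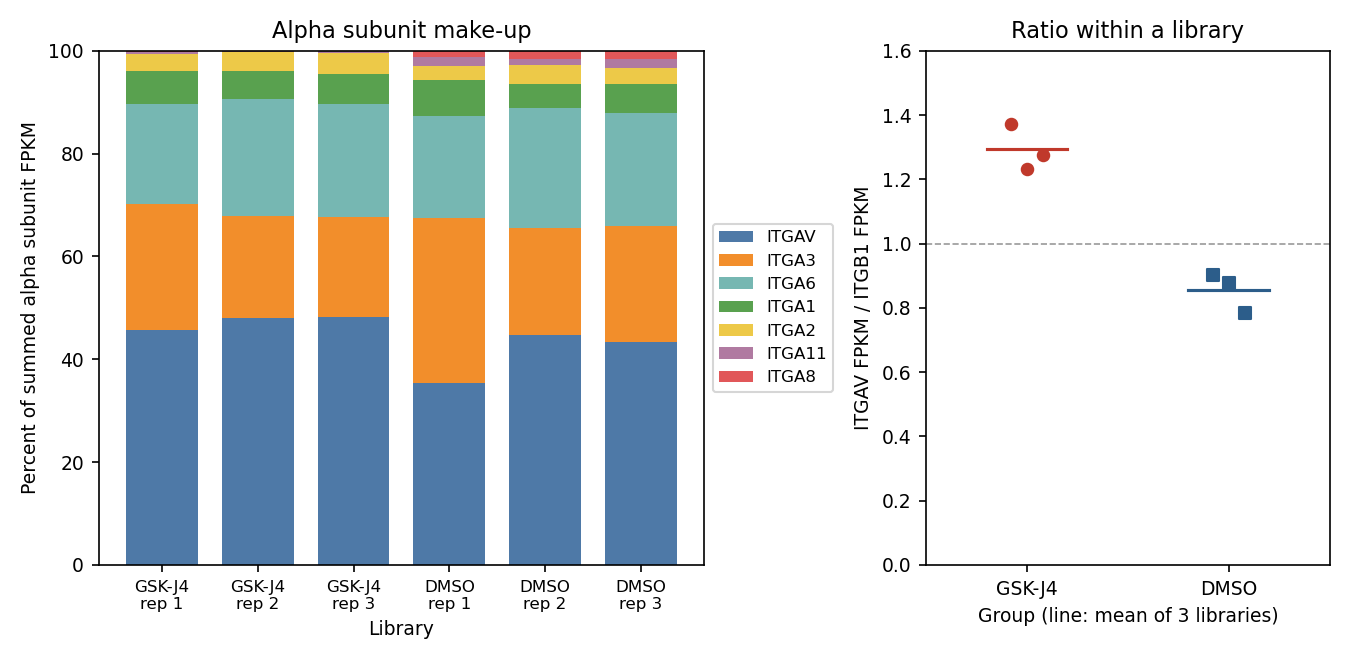
Left, the percent of summed alpha subunit FPKM that each of 7 alpha chains takes in each library; right, the ratio of ITGAV to ITGB1 FPKM in each library, with a line at the mean and a dashed line at 1. ITGA11 and ITGA8 form a visible cap on the DMSO bars that is almost gone from the GSK-J4 bars, and the ratio is above 1 in 3 of 3 GSK-J4 libraries and below 1 in 3 of 3 DMSO libraries.

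In order of mean FPKM, the GSK-J4 libraries ran ITGAV, ITGB1, ITGA6, ITGA3, ITGB5, ITGA1, ITGA2, ITGA11 and ITGA8. The DMSO libraries ran ITGB1, ITGAV, ITGA3, ITGA6, ITGB5, ITGA1, ITGA2, ITGA11 and ITGA8. Neighbours whose library values overlapped were ITGA6 with ITGA3 and ITGB5 with ITGA1 in the GSK-J4 group. In the DMSO group they were ITGB1 with ITGAV, ITGA3 with ITGA6 and ITGA11 with ITGA8. ITGA11 and ITGA8 were thus at nearly the same level with DMSO, 3.14 ± 0.629 and 3.11 ± 0.524 FPKM. With GSK-J4 they were apart, at 0.811 ± 0.274 FPKM for ITGA11 and 0.234 ± 0.107 FPKM for ITGA8 (SD, n = 3 each).

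**Figure D4:**
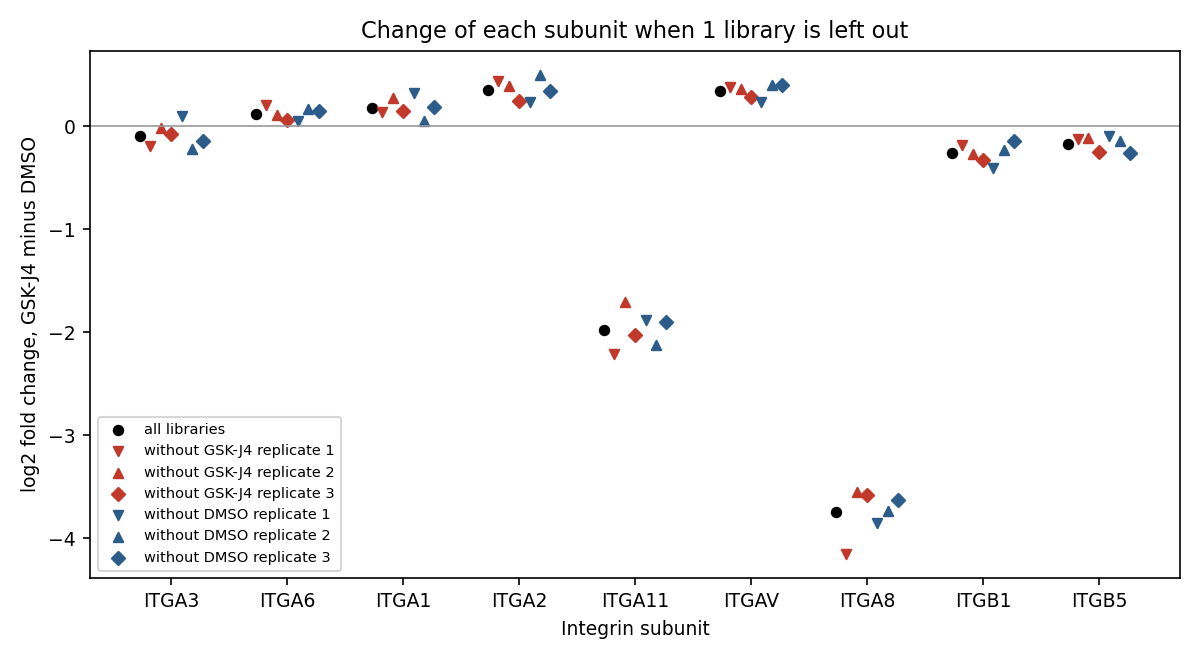
Log2 fold change of each of the 9 subunits with all 6 libraries (black circles) and with 1 library left out at a time (red, a GSK-J4 library; blue, a DMSO library). ITGA8 and ITGA11 stay at or below -1.71 in every fit shown, while the other 7 stay between -0.41 and 0.50.

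Outside the 9 members, 7 of the other integrin subunits could be tested, and 1 of them fell, beside 3.99% of all tested genes. ITGB3, the beta chain of a vitronectin and fibronectin receptor with ITGAV, had 5.76, 4.07 and 3.34 FPKM in GSK-J4 replicates 1, 2 and 3, against 10.9, 8.15 and 13.3 FPKM in the DMSO libraries. No GSK-J4 library reached the lowest DMSO library. ITGB3 fell 2.47-fold (SE 0.22 on the log2 scale, adjusted p = 0.00639 in edgeR). The call was lost when GSK-J4 replicate 2 was left out (adjusted p = 0.052) and with the W covariate (0.065). ITGB6, the epithelial partner of ITGAV, was at 2.29 ± 0.444 FPKM with GSK-J4 and 4.61 ± 2.16 FPKM with DMSO (SD, n = 3 each). Its log2 fold change of -1.01 was not called (adjusted p = 0.0997), but was called without DMSO replicate 1 (-1.29, adjusted p = 0.011) and by DESeq2. ITGB8, another partner of ITGAV, was at 2.33 ± 0.322 FPKM with GSK-J4 and 2.15 ± 0.174 FPKM with DMSO (SD, n = 3 each) and was not called. ITGA4 (-0.45), ITGA7 (0.49), ITGA9 (-0.24) and the leukocyte chain ITGB2 (-1.90), with means below 5 CPM in both groups, did not pass the test. Among the beta chains ITGB1, ITGB3, ITGB5, ITGB6 and ITGB8, ITGB1 took 77.5% ± 1.59 of their summed FPKM with GSK-J4 and 74.0% ± 3.78 with DMSO, while ITGB3 took 4.13% ± 1.51 with GSK-J4 and 8.05% ± 1.86 with DMSO (SD, n = 3 each).

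Inside the cell, 6 of 36 tested genes for integrin tail-binding and focal adhesion proteins were lower with GSK-J4, beside 3.99% of all tested genes. The other 30 were not called, and the list median was -0.15. Leaving out GSK-J4 replicate 2 or 3 reduced the count to 1, as did the W covariate. TNS4, a tensin that binds the beta tail, fell by 1.78 on the log2 scale (adjusted p = 0.00223 in edgeR). ACTN1 (2.00-fold lower), which cross-links actin, VCL (-0.87), which binds talin and actin, and KANK4 (-0.96), of a talin-binding family, also fell. Each of these 3 failed the test when the fit left out GSK-J4 replicate 2 (adjusted p = 0.074, 0.096 and 0.078) or 3 (0.060, 0.073 and 0.054). The talin gene TLN1 (0.16, adjusted p = 0.530), ILK (-0.15, 0.550), whose product links beta tails to parvin, and the focal adhesion kinase gene PTK2 (-0.16, 0.482) were not called; these 3 were chosen after their values were seen.

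Ligands of the collagen-binding chains were lower for 9 of 11 tested genes, with a median log2 fold change of -1.49, beside 3.99% called lower over all tested genes. The count was 7 without GSK-J4 replicate 2 or 3, 6 with the W covariate and 7 of 10 by limma on FPKM. COL6A2 (-3.73), COL6A1 (-2.76), COL1A2 (-2.49) and COL1A1 (-2.16) fell, COL1A1 to 50.3 ± 13.9 CPM with GSK-J4, against 225 ± 61.7 CPM with DMSO (SD, n = 3 each). Ligands of the RGD-binding chains, and latent TGF-beta genes bound by ITGAV receptors, were lower for 8 of 16 tested genes, with a median of -0.76. Leaving out GSK-J4 replicate 2 or 3 reduced the count to 5, as did the W covariate. The microfibril gene FBN3 (-3.82), TGFB3 (-1.01), CTGF (-1.05) and TGFBI (-0.85) fell. The nephronectin gene NPNT, a ligand of ITGA8 chosen after its values were seen, was at 11.3 ± 2.68 CPM with GSK-J4 and 17.5 ± 6.52 CPM with DMSO (SD, n = 3 each) and was not called (-0.62, adjusted p = 0.226 in edgeR). Laminins and other basement membrane genes gave 3 lower and 1 higher of 14 tested, with a median of 0.08. These were AGRN (-1.24), COL4A1 (-0.77) and COL4A2 (-0.75) on the lower side and the laminin gene LAMA3 (0.63) on the higher. None of the 4 was called when GSK-J4 replicate 2, GSK-J4 replicate 3 or DMSO replicate 3 was left out, where adjusted p was 0.051 to 0.22, and AGRN (0.053) and COL4A1 (0.12) were also lost without DMSO replicate 1. With the W covariate none of the 4 was called (0.060 to 0.26), and limma on FPKM called none of the 3 lower ones. COL4A1, at an adjusted p of 0.0486 in edgeR, was also lost with DESeq2 size factors (0.055), with no filter on low counts (0.099) and with a filter of more than 1 CPM (0.057).

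Matrix receptors that are not integrins changed in both directions. Of 11 tested, 4 were lower and 1 was higher, beside 3.99% lower and 1.05% higher over all tested genes. The syndecan genes SDC1 (-1.83) and SDC4 (-0.80), whose products bind matrix through sugar chains, and the hyaluronan receptor gene CD44 (-1.30) fell, as did SDC3 (-2.11), which was chosen after its values were seen. DDR2, a collagen receptor kinase, rose to 103 ± 10.8 CPM with GSK-J4, against 59.7 ± 2.34 CPM with DMSO (SD, n = 3 each, log2 fold change 0.78, adjusted p = 0.00274 in edgeR). Leaving out GSK-J4 replicate 2 or 3 reduced the lower count to 2, as did the W covariate, with SDC4 (adjusted p = 0.095, 0.077 and 0.084) and SDC3 (0.18, 0.15 and 0.23) no longer called. SDC3 was also lost when GSK-J4 replicate 1 (0.060), DMSO replicate 2 (0.0503) or DMSO replicate 3 (0.16) was left out, and by limma on FPKM (0.12). Its level was low, at 0.356 ± 0.125 CPM with GSK-J4 and 1.55 ± 0.545 CPM with DMSO (SD, n = 3 each). Of 12 membrane partners of integrins, 2 were called lower, beside 3.99% of all tested genes. These were THY1 (-1.67), a surface protein that binds integrins, and the caveola gene CAVIN1 (-0.46). The call of CAVIN1 did not hold when any GSK-J4 library (0.058 to 0.19) or DMSO replicate 1 (0.075) was left out. With the W covariate neither was called (adjusted p = 0.072 for THY1 and 0.22 for CAVIN1). The tetraspanin gene CD9 (-1.08, adjusted p = 0.098) was called only without DMSO replicate 1 (0.031), by DESeq2 or with no filter on low counts, and CD47 (0.30), an integrin-associated protein gene, was not called.

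**Figure D5:**
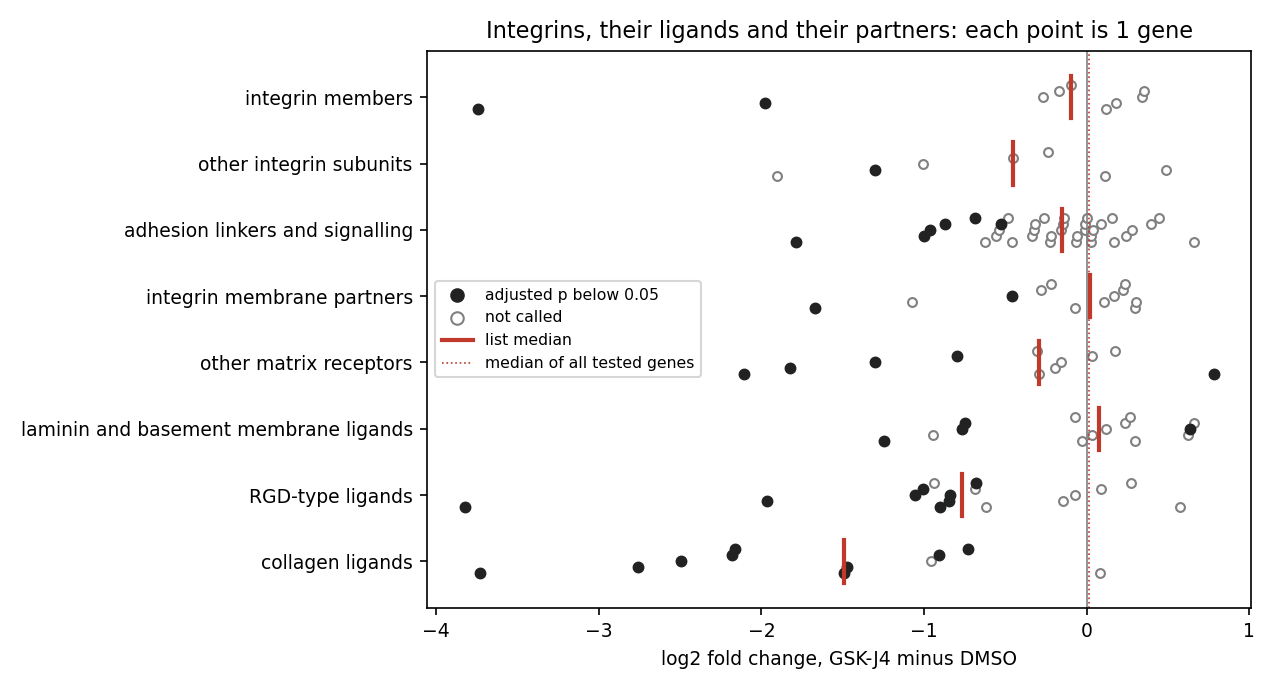
Log2 fold change of each tested gene in the list of 9 integrin members and in 7 lists of partners and ligands, with filled points for genes that passed the test, a red bar at each list median and a dotted line at the median of all tested genes. The collagen and RGD-type ligand lists have their medians furthest to the left, at -1.49 and -0.76, while the median of the integrin members is -0.10.

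Markers of other cells were read in the same libraries. In the myofibroblast list, 7 of 11 tested genes were lower, ACTA2 (-2.08) and COL1A1 among them, beside 3.99% of all tested genes. The summed level of the list was 2032 to 2417 CPM with GSK-J4 and 4254 to 5971 CPM with DMSO. COL1A1, COL1A2 and FN1 were also counted as lower in the ligand lists above, so these lists are not separate. In the muscle list, 5 of 9 tested genes were lower, including the actin genes ACTG2 (-4.37) and ACTC1 (-3.88). The other 4 were not called, and 2 of the 9 had a log2 fold change above 0. The summed level was 69.7 to 92.5 CPM with GSK-J4 and 353 to 544 CPM with DMSO, with MYOG at 0 in every library. ACTG2 alone was at 13.1 ± 3.28 CPM with GSK-J4 and 268 ± 65.0 CPM with DMSO (SD, n = 3 each). It was thus a large part of the DMSO sum. The genes called lower in the myofibroblast and muscle lists changed in the same direction as ITGA8, ITGA11 and ITGB3. The part of these lists in those results was not tested. The blood and leukocyte list held 4 tested genes, CSF1R and LCP1 among them, and summed to 2.87 to 8.59 CPM with GSK-J4 and 4.21 to 15.6 CPM with DMSO. None of the 4 was called, and their median log2 fold change was -1.06. ITGB2 is in this list too, so the list is not separate from the ITGB2 result above. The globin genes HBBA and HBE had no counts. ITGB3 and PECAM1 are among the 3 tested endothelium and platelet markers. Over all 9 names these markers summed to 34.0 to 46.3 CPM with GSK-J4 and 49.8 to 67.3 CPM with DMSO. CDH5 and GP9 were at 0. The sum includes ITGB3, which was called lower, so it is not separate from the ITGB3 result. PECAM1 was not called (0.38, adjusted p = 0.497 in edgeR), and the median log2 fold change of the 3 tested genes was -0.05. ITGA2B, the platelet partner of ITGB3, had 20, 4 and 6 counts in the GSK-J4 libraries and 6, 4 and 7 in the DMSO libraries. Of the retina and pigment cell markers, RBPMS (-0.82) was lower among 3 tested, but not without GSK-J4 replicate 2 (adjusted p = 0.092), GSK-J4 replicate 3 (0.12) or DMSO replicate 3 (0.080) or with the W covariate (0.16), PMEL (1.04) was not called, and TYR and ISL1 had no counts; the list summed to 17.8 to 21.6 CPM with GSK-J4 and 27.3 to 37.0 CPM with DMSO. Lens epithelium markers held 1 higher and 1 lower gene of 8 tested, GJA1 (0.50) and AQP1 (-1.54). GJA1 did not pass when the fit left out GSK-J4 replicate 1 (adjusted p = 0.073), GSK-J4 replicate 2 (0.13), GSK-J4 replicate 3 (0.14), DMSO replicate 1 (0.066) or DMSO replicate 3 (0.081), nor with the W covariate (0.23).

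Genes with a profile close to that of the 2 subunits that fell were ranked by the root mean square distance of their centred log2 CPM over the 6 libraries, among 8620 named genes with a mean of at least 5 CPM. Nearest to ITGA8 were the cardiac actin gene ACTC1 at a distance of 0.24, the collagen VI gene COL6A2 at 0.26, FBN3 at 0.315, the smooth muscle actin gene ACTG2 at 0.47 and the LIM domain gene CRIP1 at 0.49. Nearest to ITGA11 were the mitotic ubiquitin-conjugating enzyme gene UBE2C at 0.17, RACGAP1, which acts in cytokinesis, at 0.17, COL1A1 at 0.18, the spindle gene SPAG5 at 0.21 and the fibronectin gene FN1 at 0.21. The log2 fold changes of these genes were -4.37 to -3.07 for the ITGA8 group and -2.16 to -1.75 for the ITGA11 group. CRIP1 and FN1 were called with all libraries but not when DMSO replicate 1 was left out (adjusted p = 0.065 and 0.057) or with no filter on low counts (0.0975 and 0.0817). Since the libraries form 2 groups, closeness here mostly reflects a like difference between GSK-J4 and DMSO.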

How the data were processed

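One deposited table gives raw whole-number counts for each gene. The other deposited table gives FPKM made by the authors, and a check of its values found that gene length and 1 factor per library turn the counts into them. This factor was 0.874 (GSK-J4 replicate 3) to 0.979 (DMSO replicate 3) of the summed counts of a library. Per the submitters' processing notes, DESeq2 1.20.0, StringTie 1.3.3b, featureCounts 1.5.0-p3 and HISAT2 2.0.5 were used, with no roles named. The sources used here do not name the genome build, the annotation release or the strand setting of the counting. Reads of overlapping or antisense genes and of near-identical actin genes may be split in an unknown way. Groups and replicate numbers came from sample titles. No label says whether replicates are separate birds or cultures, and p-values then cover only the spread between these samples, which may be technical. Pairs within a group differed by more than sampling noise (chi-square 10.3 to 33.1 per degree of freedom).

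Counts were fitted in R 4.3.3 with edgeR 4.0.16 (filterByExpr, TMM, robust quasi-likelihood F test, treatment only), which kept 12583 of 17951 genes with any count at a biological coefficient of variation of 16.9%. This spread, more than depth, limits precision except for the lowest genes. Fold changes are GSK-J4 over DMSO, SEs were derived from the F statistics, and CPM are TMM-normalised. The alternatives were other scaling factors, other filters, DESeq2 1.42.0, limma 3.58.1 on log2(FPKM + 0.1) and log2(FPKM + 1), which understates changes of low genes, a replicate block, the chromosome W signal as a covariate and each library left out. The fits were also run on simulated counts that had the same spread between replicates for every gene. Real genes differ in spread, and the outcome is not reported here, so that run is not used as support for the calls.

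Members and gene lists were chosen with earlier results of these data known. The text names all members, all other tested integrin subunits, up to 4 genes of each list ranked by p (for cell markers, some of these and the defining genes), and the 5 genes nearest to each of the 2 called members with the largest change; exceptions are marked. List names with no match were not analysed here, and some marker results are not reported here.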

Additional observations from a re-analysis of the deposited data

How the results depend on the processing

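ITGA8 and ITGA11 were called lower under all 15 alternatives, ITGA8 with log2 fold changes of -4.15 to -1.73 and ITGA11 with -2.22 to -1.19, the smallest sizes coming from log2(FPKM + 1). The member count was therefore 2 throughout, with 2 to 2 when 1 library was left out. The labels do not say whether libraries with the same replicate number were paired, and pairing was not tested. Deviations of libraries with the same number correlated at 0.30, 0.17 and 0.04 for numbers 1, 2 and 3. Those of libraries with different numbers correlated at -0.27 to 0.11. The highest of these was for GSK-J4 replicate 3, which was closer to DMSO replicate 2 than to DMSO replicate 3. With the number as a replicate block, 1 member was called higher, ITGAV (0.35, adjusted p = 0.045), while 0 to 0 were when 1 library was left out; over all genes 406 were higher and 723 lower, and 2 other integrin subunits, ITGB3 and ITGB6, were lower (ITGB6 -0.94, adjusted p = 0.022). Genes called higher numbered 132 as reported, 269 with no filter, 325 with DESeq2, 33 with the W covariate and 42 to 271 with 1 library left out. Genes called lower numbered 502, then 329 and 319 with limma on log2(FPKM + 0.1) and log2(FPKM + 1), 167 with the W covariate and 203 to 590 with 1 library left out. Other integrin subunits lower numbered 1, then 2 with DESeq2, 0 with the W covariate (ITGB3 lost) and 0 to 2 with 1 library left out. Adhesion genes lower numbered 6, then 1 with the W covariate and 1 to 8 with 1 library left out. The difference of the alpha chain sums was 0.14 in TMM CPM per kb and 0.11 to 0.18 with 1 library left out. ITGA3 changed sign without DMSO replicate 1 (range with 1 library left out -0.22 to 0.10), and ITGB8 without GSK-J4 replicate 3 (range -0.00498 to 0.19) and with the W covariate (-0.019). The cause of these changes was not tested. Over 61 named genes and 904 comparisons with an alternative, 814 kept direction and call, 75 lost the call, 12 gained it and 3 changed sign. With 9 to 22 counts of ITGA8 per GSK-J4 library, counting error is a large part of its level there.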

Other observations

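Within both groups, the library numbered 1 stood at the same end for 7 of the 9 members: it had the lowest CPM of its group for ITGAV, ITGA2, ITGA6 and ITGB1 and the highest for ITGA1, ITGA3 and ITGA11. ITGA3, for example, had 237 CPM in GSK-J4 replicate 1 against 189 and 204 CPM in the other two, and 281 CPM in DMSO replicate 1 against 185 and 209 CPM in the other two. ITGA8 and ITGB5 did not follow this order. How often the library numbered 1 stands at the same end over all tested genes was not tested. The pattern is therefore not given as a trait of the integrins.

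The tables place 6 of the 16 tested integrin subunits on chromosome 7, namely ITGAV, ITGB2, ITGA4, ITGA6, ITGB6 and ITGB5 in order of position, with 3363622 to 7130708 bases between neighbours. Of these 6, none was called in edgeR with all 6 libraries and treatment as the sole term, beside 5.04% of all tested genes. An unadjusted p below 0.05 was found for 3 of them, ITGAV, ITGB2 and ITGB6, beside 19.1% of all tested genes. With so few subunits, these counts are not given as a trait of chromosome 7. ITGB6 was called lower by DESeq2 and, in edgeR, without DMSO replicate 1 (adjusted p = 0.011). ITGAV was called in neither. Calls with the replicate number as a block are given with the other alternatives.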
